A study of Bos taurus with 8 samples.

Results

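Small luteal cells (SLC) are one of the steroid-making cell types of the corpus luteum, and they were described here from the 4 arrays whose labels name this cell type, out of 8 arrays in the series. The other 4 arrays hold RNA of large luteal cells (LLC) and served as the reference. All samples came from lactating Holstein cows whose estrus had been synchronised with cloprostenol, a prostaglandin F2alpha analog, and whose mature corpus luteum was taken at mid-cycle. The cows' ages were not given in the sources used here, and no sample received a treatment after collection. The tissue was dissociated with collagenase, enriched for luteal cells on a Percoll gradient, stained with the DNA dye Hoechst and sorted by FACS into small and large cells, so that cell size and dye, rather than a surface marker, defined both groups. RNA of each sample was hybridised to 1 Affymetrix Bovine Gene 1.0 ST array, and the deposited value is a log2 signal, on which a difference of 1 equals a fold of 2. The labels call the samples biological replicates and do not state whether an SLC and an LLC sample of the same number came from the same cow, so all p-values measure the spread between these samples.

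The corpus luteum forms from the ovulated follicle and secretes progesterone. SLC are held to derive mainly from theca cells and LLC mainly from granulosa cells. SLC respond to luteinizing hormone (LH) through its receptor and cyclic AMP, while LLC are known for high basal progesterone output, for oxytocin and for the prostaglandin F2alpha receptor. The gland also contains many endothelial cells, pericytes, fibroblasts and macrophages.

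The platform carries 24415 transcript clusters, of which 18550 were annotated with exactly 1 gene symbol. With 1 cluster kept per symbol, 18087 genes were described. The SLC arrays were closely matched, with medians over all clusters of 3.19 to 3.23 and pairwise correlations of 0.989 to 0.991 across genes, which do not count as replicates. A background limit was set on each array at the 95th percentile of 711 olfactory receptor genes, which luteal cells are not known to use, and it lay between 2.27 and 2.31 in SLC and between 2.33 and 2.46 in LLC. A gene's position is also given as a percentile, the share of the 18087 genes with a lower signal on the same array, averaged over the arrays of a group. Probe sets differ in affinity, so an order of levels between genes is approximate.

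The markers named for SLC were high on all 4 SLC arrays. INSL3, the insulin-like peptide 3 of theca and Leydig cells, had log2 signals of 9.27, 7.95, 8.23 and 8.46 in SLC replicates 1 to 4 and of 5.30, 5.53, 6.83 and 5.83 in LLC replicates 1 to 4. The groups did not overlap, as was the case for 12.9% of all genes with SLC on top, and the SLC mean of 8.48 ± 0.57 (SD, n = 4) stood at percentile 97.8, against 80.8 in LLC. The difference was 2.60 on the log2 scale (SE 0.35, limma adjusted p = 0.00103), a fold of 6.08. SCG2, the granule protein secretogranin II, gave 7.88, 7.43, 8.67 and 7.46 in SLC and 4.09, 4.64, 3.71 and 6.05 in LLC, a difference of 3.24 (SE 0.47, limma adjusted p = 0.0013). It stood at percentile 96.1 in SLC and 64.5 in LLC, again without overlap.

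PDGFRA, a receptor for platelet-derived growth factors that theca cells share with fibroblasts, was lower in level but also separated. It gave 6.0, 6.49, 6.91 and 6.99 in SLC against 4.04, 5.22, 3.71 and 4.00 in LLC, a difference of 2.36 (SE 0.32, limma adjusted p = 0.0011). LHCGR, the LH receptor, had the highest SLC level of these markers, at percentile 99.3, with signals of 9.60, 9.08, 9.51 and 9.14. Its LLC signals were 7.33, 7.55, 8.39 and 9.38, so that LLC replicate 4 lay within the SLC range. The LHCGR difference of 1.17 (SE 0.39, limma adjusted p = 0.0593) did not pass, and without LLC replicate 4 it was 1.58 (limma adjusted p = 0.00211).

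**Figure D1:**
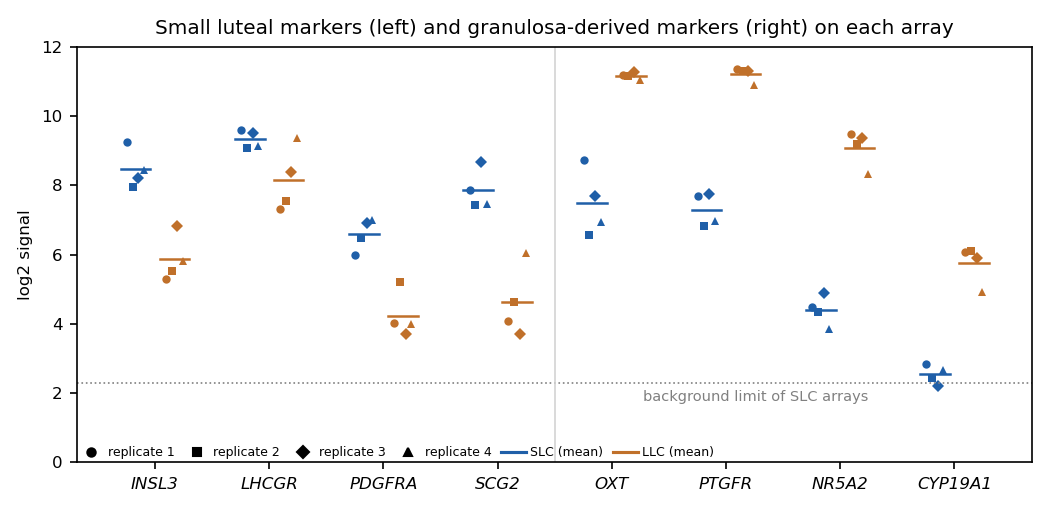
Log2 signal (vertical axis) of 4 small luteal and 4 granulosa-derived marker genes on every SLC (blue) and LLC (orange) array, with symbols for replicates 1 to 4, horizontal bars for group means and a dotted line for the mean background limit of the SLC arrays. INSL3, PDGFRA and SCG2 are separated between the cell types, LHCGR of LLC replicate 4 reaches the SLC values, and OXT of SLC ranges from 6.56 to 8.74.

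Genes that mark large or granulosa-derived cells ranged in SLC from background to above percentile 90. Of 7 such genes, 5 were above the limit on all 4 SLC arrays, with a median percentile of 63.9 against 94.7 in LLC. FSHR, the receptor for follicle-stimulating hormone, was at or below the limit on every SLC array, at a mean of 1.14 ± 0.12 (SD, n = 4). It was also near the limit in LLC, with 2.66, 2.02, 2.03 and 1.81, and above it on 1 LLC array. INHBA was alike in both cell types, at means of 5.12 in SLC and 5.18 in LLC (limma adjusted p = 0.84). CYP19A1, the aromatase that makes estrogens, was close to the limit with SLC signals of 2.85, 2.44, 2.21 and 2.66. OXT, the oxytocin precursor, gave 8.74, 6.56, 7.70 and 6.94 in SLC, at percentile 93.7, and PTGFR, the prostaglandin F2alpha receptor, gave 7.69, 6.82, 7.75 and 6.96. Both stayed below all LLC arrays, by 3.68 for OXT (SE 0.38, limma adjusted p = 0.000292) and 3.92 for PTGFR (SE 0.22, limma adjusted p = 2.57e-05). SLC replicates 1 and 3 were the 2 highest for both genes. Whether single SLC hold these transcripts or whether LLC were present in the sort cannot be told apart in sorted bulk RNA, in which fewer cells of a type and less RNA per cell also look alike.

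Most genes on the array gave signal in SLC. On all 4 SLC arrays, 12072 genes (66.7%) were above the background limit, and 4767 were at or below it on all 4. The remaining 1248 were above it on 1 to 3 arrays. In LLC, 11652 genes (64.4%) were above the limit on all 4 arrays. The median gene of SLC had a signal of 3.66, the 10th percentile was 1.07, the 90th 6.71 and the 99th 9.02.

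**Figure D2:**
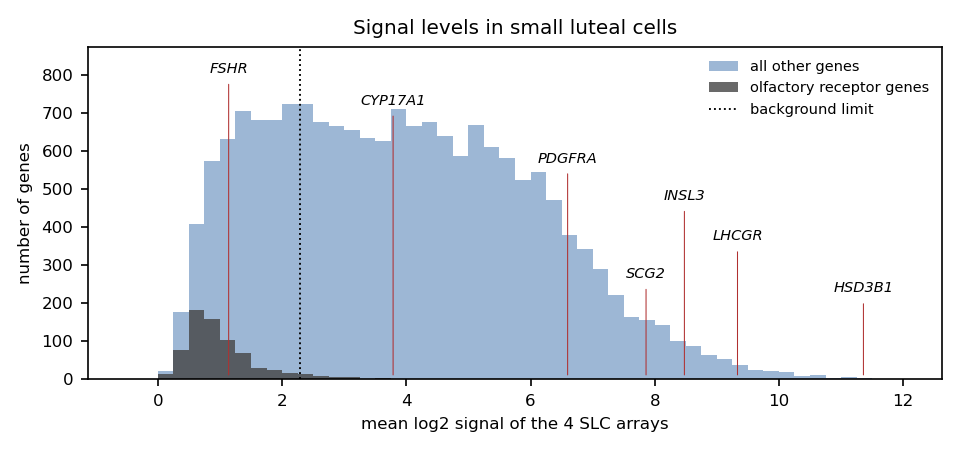
Number of genes (vertical axis) by mean log2 signal over the 4 SLC arrays (horizontal axis), with olfactory receptor genes drawn in front in dark grey, the mean background limit as a dotted line and named genes as red lines. The olfactory receptor genes crowd below the limit of about 2.29, CYP17A1 lies mid-range at 3.79, and HSD3B1 at 11.36 is near the upper end.

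The 20 genes of highest SLC signal were ACTB, SPARC, TIMP2, HSD3B1, SCARB1, IGFBP7, TIMP1, LUM, TMSB10, FN1, CYP11A1, RPS2, VIM, LOC788457, ITM2B, SCD, GAPDH, COL1A1, ACTG1 and TMEM254, and the largest range between the 4 SLC arrays among them was 0.59. Of these 20, 11 were also among the 20 highest of LLC. FN1 and COL1A1 alone among them counted as higher in SLC under the rule used throughout, which asked for a limma p and adjusted p under 0.05 and a fold above 2. That rule called 3.69% of the 18087 genes higher in SLC and 2.85% higher in LLC. Over all 24415 clusters the shares were 3.07% and 2.39%, or 5.46% in either direction.

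ACTB, the cytoplasmic actin, ranked first in SLC at 11.54 ± 0.03 (SD, n = 4) and ranked 2 in LLC. SPARC, a collagen-binding matricellular protein, ranked 2 with SLC signals of 11.40, 11.40, 11.57 and 11.51 and ranked 24 in LLC, and its fold of 1.99 missed the threshold. TIMP2 and TIMP1, inhibitors of matrix metalloproteinases, ranked 3 and 7 in SLC. COL1A1, a chain of type I collagen, ranked 18 in SLC with 10.51, 10.39, 10.77 and 10.98 and ranked 339 in LLC with 7.94, 9.45, 8.10 and 8.33. No LLC array reached the SLC values, and the COL1A1 difference was 2.21 (SE 0.30, limma adjusted p = 0.001). FN1, fibronectin, gave 10.75, 10.87, 11.13 and 11.22 in SLC and was 1.38 above LLC (SE 0.22, limma adjusted p = 0.00209). Among the 100 genes of highest SLC signal, 15 counted as higher in SLC, 1 counted as higher in LLC, and 56 were also in the LLC top 100.

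The genes of progesterone synthesis were at the upper end of the SLC distribution. HSD3B1, which converts pregnenolone to progesterone, gave 11.32, 11.36, 11.44 and 11.32 in SLC and ranked 4. CYP11A1, which cleaves the cholesterol side chain, gave 10.98, 10.88, 10.98 and 10.87 and ranked 11. FDX1, the ferredoxin that passes electrons to CYP11A1, averaged 10.13 ± 0.10 (SD, n = 4) in SLC, at percentile 99.8. None of the 3 reached a fold of 2 between the cell types. The differences, as SLC minus LLC, were -0.27 for HSD3B1 (limma adjusted p = 0.0598), -0.45 for CYP11A1 (limma adjusted p = 0.00774) and -0.81 for FDX1 (limma adjusted p = 0.000765). TSPO and STARD3, which bind cholesterol at the mitochondrial and endosomal membranes, were lower, at percentiles 72.2 and 64.9. STAR shares its cluster with other symbols and was not analysed here.

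Enzymes beyond progesterone were uneven. Of 11 genes for androgen and estrogen synthesis, 9 were above the limit on all SLC arrays, with a median percentile of 68.6. HSD17B12 and CYB5A were highest, at percentiles 99.2 and 94.8. CYB5A, the cytochrome b5 that aids the lyase reaction of CYP17A1, gave 7.52, 7.51, 7.20 and 7.64 and was the member that counted as higher in SLC, by 1.02 (SE 0.14, limma adjusted p = 0.0011). Its fold of 2.03 is close to the threshold, and the call was lost without SLC replicate 4, LLC replicate 1 or LLC replicate 3. CYP19A1 was the member that counted as higher in LLC, at 6.07, 6.11, 5.91 and 4.91 there against the SLC signals given above, a difference of -3.21 (SE 0.26, limma adjusted p = 9.16e-05). CYP17A1, the enzyme of androgen synthesis that defines theca cells before ovulation, was mid-range in SLC with 3.88, 3.76, 3.87 and 3.64. In LLC it gave 2.63, 3.01, 4.74 and 4.59, a range that contains all the SLC values.

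Cholesterol synthesis was high in SLC as a group. All 15 measured genes were above the limit on all SLC arrays, 13 stood above percentile 90, and the list median was percentile 98.2 against 98.8 in LLC. DHCR7, MSMO1 and SQLE, late enzymes of the pathway and squalene epoxidase, were the highest at 10.04, 9.92 and 9.45. No member reached a fold of 2 with the test passed, and the median difference was -0.46. With no fold filter, 10 of the 15 had an adjusted p under 0.05 (limma) towards LLC and 0 towards SLC, where 11.1% and 11.7% of all genes did. FDFT1, squalene synthase, came closest to the threshold at a fold of 1.90 towards LLC, and without SLC replicate 1 or SLC replicate 4 there was 1 member that counted as higher in LLC.

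The genes for taking up and storing cholesterol ranged more widely, with a median percentile of 88.4 over 21 measured genes. SCARB1, the receptor for high-density lipoprotein, gave 11.32, 11.16, 11.30 and 11.12 in SLC and ranked 5 in both cell types. PLIN2, a lipid droplet coat protein, averaged 9.95 ± 0.17 (SD, n = 4) in SLC. INSIG1, a protein of sterol sensing, varied most among these, with 8.96, 7.52, 8.59 and 8.73. LRP1, a large endocytic receptor, counted as higher in SLC by 1.56 (SE 0.19, limma adjusted p = 0.000636). SCAP, the escort of the sterol-regulated factors, and LIPE, hormone-sensitive lipase, counted as higher in LLC, by folds of 2.26 and 2.01, and 1 of them did so without SLC replicate 2, LLC replicate 2 or LLC replicate 3.

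LH signaling genes ranged in SLC from background to near the top of the distribution. Of 26 measured genes, 20 were above the limit on all SLC arrays and 21 on all LLC arrays, where 66.7% and 64.4% of all genes were. On every SLC array, 4 were at or below it. The median percentile was 76.3 in SLC and 74.7 in LLC. GNAS, the stimulatory G protein alpha subunit, was the highest with 10.51, 10.57, 10.56 and 10.55, a spread of 0.03 (SD). ADCY3, an adenylyl cyclase, gave 7.27, 7.37, 7.68 and 7.38 in SLC and 5.13, 5.53, 6.06 and 6.43 in LLC. It was the highest of the cyclases measured in SLC and counted as higher there by 1.64 (SE 0.25, limma adjusted p = 0.00167). ADCY5 and ADCY8, other cyclases, were at or below the limit on every SLC array, at means of 1.66 and 1.49. PRKAR1A, a regulatory subunit of protein kinase A, stood at percentile 94.5. PDE8B, a cyclic AMP phosphodiesterase, gave 6.64, 5.58, 6.37 and 5.57 in SLC and also counted as higher there (limma adjusted p = 0.0329), with LLC replicate 4 at 5.71 inside the SLC range. The list had 1 such member in place of 2 without SLC replicate 3 or any of LLC replicates 1 to 3, and 4 without LLC replicate 4.

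Among 37 receptors for hormones and growth factors, 29 were above the limit on all SLC arrays. KIT, the receptor for stem cell factor, led with 8.34, 8.56, 8.96 and 7.62, followed by KDR, a receptor for vascular endothelial growth factor and also an endothelial marker, with 7.80, 8.33, 7.38 and 8.41. Neither passed the test against LLC. TGFBR2, FGFR1, AGTR1 and EDNRA, receptors for transforming growth factor beta, fibroblast growth factors, angiotensin II and endothelin, counted as higher in SLC, where 3.69% of all genes did. FGFR1 gave 5.98, 6.03, 6.20 and 6.42 and was 1.36 above LLC (SE 0.17, limma adjusted p = 0.000674). The 4 calls fell to 2 without SLC replicate 2 or LLC replicate 3 and to 1 without SLC replicate 4. Another 6 receptors counted as higher in LLC, where 2.85% of all genes did. With no fold filter, 8 of the 37 had an adjusted p under 0.05 (limma) towards SLC and 10 towards LLC, against 11.7% and 11.1% of all genes. Among the 6 was PRLR, the prolactin receptor, which was above the limit on 2 of 4 SLC arrays with 3.17, 1.86, 1.87 and 2.40. PTGER3 and FSHR were the lowest receptors in SLC, at percentiles 7.4 and 11.3.

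Theca-lineage genes were all detected. The 13 measured genes were above the limit on all SLC arrays and 12 of them on all LLC arrays, where 66.7% and 64.4% of all genes were. Their median percentile was 70.0 in SLC and 59.2 in LLC. Of the 13, 5 counted as higher in SLC and 0 as higher in LLC, where 3.69% and 2.85% of all genes did. The 5 were INSL3, NR2F2, PDGFRB, PDGFRA and BMP4. PDGFRB is also on the pericyte list and PDGFRA on the fibroblast list, whose markers are given further on and differ in the same direction, and the part of those cells in the count was not tested. NR2F2, the nuclear receptor COUP-TFII, gave 8.34, 8.08, 8.23 and 8.25 in SLC and 7.10, 6.89, 6.91 and 7.91 in LLC, a difference of 1.02 (SE 0.21, limma adjusted p = 0.0074). BMP4, a bone morphogenetic protein made by theca cells, stood at percentile 70.0. GLI1 and GLI2, transcription factors of hedgehog signaling, were the lowest members, at percentiles 35.2 and 42.7. Of 15 granulosa-lineage genes, 12 were above the limit on all SLC arrays and 13 on all LLC arrays, and the median percentile in SLC was 57.2. Among these 15, 7 counted as higher in LLC, and INHA, the inhibin alpha subunit, counted as higher in SLC with 5.73, 4.84, 5.13 and 5.13.

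Among 21 transcription factors of steroid-making cells, NR4A1 and CEBPD had the highest SLC levels, at 8.46 and 8.43, followed by NR2F2 and GATA6. NR5A1, steroidogenic factor 1, stood at percentile 87.1 in SLC with 6.66, 6.20, 6.74 and 6.08. NR5A2, the related liver receptor homolog 1, stood at percentile 61.0 with 4.50, 4.34, 4.88 and 3.85. Thus NR5A1 ranked above NR5A2 in SLC, while in LLC the order was turned, with NR5A2 at percentile 98.9 and NR5A1 at 81.2. The NR5A2 difference was -4.70 (SE 0.28, limma adjusted p = 2.6e-05), and the NR5A1 difference of 0.54 (SE 0.24) did not pass. NR2F1 and NR4A2 also counted as higher in SLC, and the number of such factors was 5 in place of 3 without SLC replicate 2 or LLC replicate 4.

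Genes of secretory granules and peptide hormones ranged from near the top of the distribution to background. PAM, which amidates peptide hormones, stood at percentile 99.4 with a spread of 0.09 (SD, n = 4). INSL3 and SCG2 followed, then OXT. CPE, the carboxypeptidase that trims prohormones, gave 6.45, 5.98, 6.52 and 7.16 in SLC and was 1.81 above LLC (SE 0.32, limma adjusted p = 0.00374). CHGB and SCG3, other granins, were at the bottom, at percentiles 10.4 and 8.3, and 4 of the 24 genes were at or below the limit on every SLC array. PTHLH, the parathyroid hormone-related protein, averaged 3.84 ± 0.48 (SD, n = 4) in SLC and was among the 3 members that counted as higher in LLC, with OXT and ADM.

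**Figure D3:**
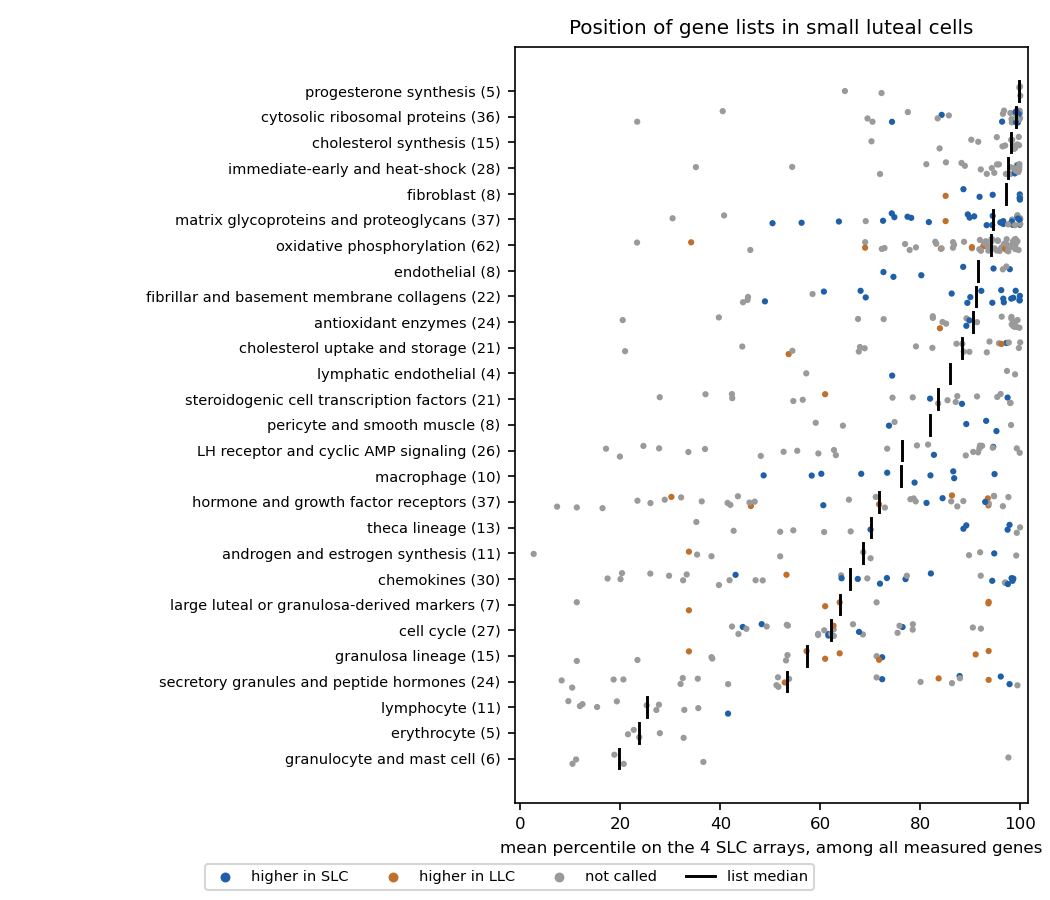
Mean percentile on the 4 SLC arrays (horizontal axis) of each member of 27 gene lists (rows, with the number of measured members), coloured by whether the gene counted as higher in SLC, higher in LLC or neither, with a black bar at the list median. The medians of progesterone and cholesterol synthesis lie at percentiles 99.8 and 98.2, collagens, matrix proteins and macrophage markers hold many blue points, and lymphocyte, erythrocyte and granulocyte lists have medians at percentiles 25.3, 23.8 and 19.8.

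Collagen and matrix transcripts were high in SLC and, for the most part, above LLC. Of 22 collagen genes, all were above the limit on all SLC arrays, 18 counted as higher in SLC and 0 as higher in LLC, and the median percentile was 91.1 against 75.5 in LLC. COL1A2 and COL3A1, fibrillar chains, followed COL1A1 at 10.43 ± 0.27 and 10.40 ± 0.21 (SD, n = 4). COL6A1, a chain of the microfibrillar type VI collagen, gave 8.98, 8.87, 9.57 and 9.08 and exceeded LLC by 2.37 (SE 0.26, limma adjusted p = 0.000358). COL2A1 and COL11A2, cartilage collagens, were the lowest, at percentiles 44.5 and 45.5. The 4 collagens that were not called were COL5A3, COL4A3, COL11A2 and COL2A1.

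Of 37 matrix glycoproteins and proteoglycans, 36 were above the limit on all SLC arrays, 22 stood above percentile 90, 26 counted as higher in SLC and 2 as higher in LLC. Decorin (DCN), a small proteoglycan that binds collagen, gave 10.45, 10.54, 10.62 and 10.72 in SLC and was 1.69 above LLC (SE 0.21, limma adjusted p = 0.000775). Lumican (LUM), a related proteoglycan, ranked 8 in SLC at 11.14 ± 0.05 (SD, n = 4), and its fold of 1.56 did not reach the threshold. The 2 members higher in LLC were POSTN (periostin), with 7.80, 8.41, 9.53 and 8.89 in SLC and a difference of -1.48, and FBLN1 (fibulin 1), with a difference of -1.90. Most fibroblast markers moved with these genes. Of 8 fibroblast markers, 6 counted as higher in SLC and 1, FBLN1, as higher in LLC. Their median percentile was near the top in both cell types, at 97.2 in SLC and 97.3 in LLC. The mean of the list ran from 8.52 to 9.10 over the SLC arrays and from 6.86 to 8.02 over the LLC arrays. COL1A1, COL1A2, DCN, LUM, DPT and FBLN1 belong to both a matrix list and the fibroblast list, so these counts are not independent, and the part of fibroblasts in the matrix signal was not tested.

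Markers of other cells were present in the SLC samples to different degrees. All 10 measured macrophage markers were above the limit on all SLC arrays and all 10 counted as higher in SLC. Their mean ran from 5.24 to 5.57 over the SLC arrays and from 3.05 to 3.56 over the LLC arrays. C1QB, a chain of complement C1q, was the highest with 8.03, 7.63, 7.03 and 7.42, at percentile 94.8. CD68, a lysosomal protein of macrophages, gave 6.48, 6.50, 6.29 and 6.21 and was 1.80 above LLC (SE 0.19, limma adjusted p = 0.00028). ITGAM and TYROBP, an integrin and an adaptor of myeloid cells, were the lowest of the list, at percentiles 48.7 and 58.3.

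All 8 endothelial markers were above the limit on all SLC arrays at a median percentile of 91.6, with a list mean of 6.53 to 7.22 in SLC and 4.66 to 6.02 in LLC. CDH5, the cadherin of endothelial junctions, gave 8.21, 8.65, 8.22 and 8.66 in SLC and 7.37, 7.65, 5.86 and 7.48 in LLC. Of the 8 markers, 6 counted as higher in SLC, and 3 did so without SLC replicate 2, SLC replicate 4 or LLC replicate 3. Pericyte and smooth muscle markers were all above the limit as well, on all SLC and all LLC arrays, and 4 of 8 counted as higher in SLC. RGS5, a regulator of G protein signaling in pericytes, was not among these 4. It gave 8.01, 9.31, 8.16 and 9.25 in SLC and 8.35, 8.51, 6.03 and 7.46 in LLC (limma adjusted p = 0.193). Of 4 lymphatic markers, FLT4 counted as higher in SLC, with LLC replicate 4 inside the SLC range. That call was lost without SLC replicate 2, SLC replicate 3 or any of LLC replicates 1 to 3, and 3 members were called without LLC replicate 4.

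Blood cell markers were near background. Of 11 lymphocyte markers, NKG7, a granule protein of cytotoxic cells, was the member above the limit on all SLC arrays, at a mean of 3.05 ± 0.21 (SD, n = 4). NKG7 was above the limit on no LLC array and counted as higher in SLC, by 1.115 (limma adjusted p = 0.000734). CD3D, CD2 and CD3G of T cells lay at percentiles 15.4, 12.4 and 11.9. Of 5 erythrocyte markers, 1 was above the limit on all SLC arrays, and HBB, the beta globin, gave 2.23, 2.21, 1.71 and 2.52. Of the granulocyte and mast cell markers, KIT and MPO were above it, KIT at the high level given above, and CPA3 and MS4A2 of mast cells were at percentiles 10.5 and 11.2.

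Chemokines formed the other large group above LLC. Of 30 measured, 24 were above the limit on all SLC arrays, 13 counted as higher in SLC and 1 as higher in LLC. CCL2, which attracts monocytes, gave 8.92, 8.97, 8.82 and 8.44 in SLC and 7.0, 6.33, 5.85 and 5.04 in LLC. CCL3, an inflammatory chemokine of myeloid cells, gave 8.71, 8.69, 8.38 and 8.55 and was 3.36 above LLC (SE 0.29, limma adjusted p = 0.000125). CXCL8, which attracts neutrophils, stood at percentile 97.5 in SLC. CCL21, a chemokine of lymphatic endothelium, was as high but uneven, with 7.25, 9.39, 8.83 and 7.66, and did not pass (limma adjusted p = 0.0617). XCL1 was the member that counted as higher in LLC, and that call was lost without SLC replicate 1, 2 or 4 or LLC replicate 1, 2 or 3. The macrophage marker means given above move in the same direction, and their part in the chemokine values was not tested.

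The 10 genes that gained most in percentile from LLC to SLC, among those called, included 2 of the macrophage list, C1QA and CD163, and 1 of the chemokine list, CCL8. The macrophage marker means given above differ in the same direction, and their part in these values was not tested. C1QA stood at percentile 40.5 in LLC and 82.0 in SLC, with SLC signals of 6.26, 5.98, 5.72 and 5.84 against 3.17, 3.64, 2.48 and 2.62. IL1B, the cytokine interleukin 1 beta, gave 7.18, 6.99, 6.97 and 6.28 in SLC and 4.81, 4.34, 2.63 and 2.21 in LLC, a difference of 3.36 (SE 0.52, limma adjusted p = 0.00199). IL10, a cytokine that dampens inflammation, stood at percentile 75.6 in SLC and 32.1 in LLC. BRB, the bovine brain-type ribonuclease, reached rank 278 in SLC with 8.98, 8.91, 8.46 and 8.34, against rank 6078 in LLC, a fold of 15.3 (limma adjusted p = 0.00055). The others were IL1A, CCL8, IL1RN, CD163, TGFBI and ACP5, with folds of 4.89 to 8.0. These genes were chosen by their difference, so their separation is a description.

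At the other end, the genes that lost most in percentile were GRIA1, PRLR, CALB2, FREM1 and ELAPOR1. GRIA1, a subunit of AMPA glutamate receptors, was at or below the limit on every SLC array, with 2.18, 2.00, 1.64 and 1.97, and stood at percentile 93.9 in LLC, at least 33.1-fold higher. For such bounds, the gene at or below the limit was set on each array at the background limit, or at its own signal where that was higher. ELAPOR1 gave 3.89, 2.23, 2.86 and 2.42 in SLC, and CALB2, the calcium-binding protein calretinin, gave 2.53, 1.73, 2.80 and 2.44. SLC replicates were thus spread across the background limit for PRLR, CALB2 and ELAPOR1, and all stayed below it for GRIA1 and FREM1.

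The background limit was lower on the SLC arrays than on the LLC arrays. By these limits, 63 genes were above background on all 4 SLC arrays and on no LLC array. Of the 63 genes, 19 counted as higher in SLC and 44 were not called, TRIM7 with a difference of 0.09. TIMD4, a receptor of resident macrophages for dying cells, had the highest SLC signal of these, with 4.41, 4.21, 3.79 and 3.34 in SLC and 2.17, 1.99, 2.03 and 1.90 in LLC, at least 2.94-fold higher. FCGR1A, an Fc receptor of monocytes and macrophages, was at least 2.41-fold higher, CLEC12B, a lectin receptor of myeloid cells, at least 2.36-fold and ITGAM at least 2.25-fold. In the other direction, 47 genes were above background on all 4 LLC arrays and on no SLC array, of which 38 counted as higher in LLC, GRIA1 and FREM1 among them. Without LLC replicate 4 the latter number was 86.

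Mitochondrial and ribosomal genes were high in SLC. Of 62 genes of oxidative phosphorylation, 60 were above the limit on all SLC arrays, at a median percentile of 94.2 against 96.6 in LLC, and 0 counted as higher in SLC and 6 as higher in LLC. Without the fold filter, 39 of the 62 had an adjusted p under 0.05 (limma) towards LLC and 1 towards SLC. The shares over all genes were 11.1% and 11.7%. COX8A, a subunit of cytochrome c oxidase, was highest at 9.79 ± 0.03 (SD, n = 4). The 36 ribosomal protein genes with a cluster of their own had a median percentile of 99.1 in SLC and 97.0 in LLC, and 10 counted as higher in SLC. Without the fold filter, 33 of the 36 had an adjusted p under 0.05 (limma) towards SLC and 0 towards LLC. RPS9 gave 9.91, 9.84, 9.93 and 9.71 in SLC and 8.15, 8.50, 8.57 and 8.89 in LLC. RPS23 and RPS14 were exceptions at percentiles 40.5 and 23.4. Ribosomal protein genes have many near-identical copies, so probes for single genes are uncertain.

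Stress-responsive genes were also high. The 28 measured immediate-early and heat-shock genes were all above the limit on all SLC arrays, with a median percentile of 97.6. HSPA8, a constitutive chaperone, averaged 10.22 ± 0.05 (SD, n = 4), DUSP1, an induced phosphatase, 10.12 ± 0.09, and EGR1, an immediate-early transcription factor, 9.95 ± 0.17. FOSB and HSPA1A counted as higher in SLC, both calls were lost without LLC replicate 3, and 5 genes were called without LLC replicate 4. Of 24 antioxidant genes, GSTA1, a glutathione transferase of steroid-making cells, was the highest with 10.58, 10.30, 10.30 and 9.91. SOD2 and GPX3 counted as higher in LLC, and HMOX1 and GSTA2 as higher in SLC, of which 1 was called without LLC replicate 3. Over all genes, 3.69% counted as higher in SLC and 2.85% as higher in LLC. All 27 measured cell cycle genes were above the limit on all SLC arrays at a median percentile of 62.2, and 6 counted as higher in SLC and 1, CCNE2, as higher in LLC. MKI67, a marker of proliferating cells, gave 5.35, 5.34, 5.81 and 5.51 in SLC and 3.94, 3.94, 3.79 and 3.76 in LLC, a difference of 1.65 (SE 0.12, limma adjusted p = 7.27e-05).

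The 4 SLC arrays differed little for most genes. The median SD over the SLC arrays was 0.152, against 0.203 over the LLC arrays. Of the 12072 genes above the limit on all SLC arrays, 8969 (74.3%) had a range under 0.5 between the 4 arrays, 400 (3.31%) had a range over 1 and 31 a range over 2. For the genes with a range over 1, the array farthest from the other 3 was replicate 3 in 146, replicate 4 in 106, replicate 1 in 87 and replicate 2 in 61. Replicates 3 and 4 were the pair with the most genes that differed more than 2-fold, at 182, and replicates 2 and 4 the pair with the fewest, at 72.

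The spread between SLC arrays was largest for MRO and BOLA-DQB1, and 3 of the 12 genes of highest SD were genes of the major histocompatibility complex. MRO (maestro) gave 5.68, 4.21, 5.13 and 7.66 in SLC, the highest SD of any gene above the limit at 1.46. In LLC it ranged from 4.15 on replicate 4 to 6.96 on replicate 2. BOLA-DQB1, a class II antigen-presenting chain, gave 5.10, 5.04 and 4.80 on SLC replicates 1 to 3 and 7.76 on replicate 4, and BOLA-DQA1, its partner chain, was also highest there with 4.37, 4.12, 5.03 and 6.45. BOLA, a class I chain, was lowest on replicate 3 with 8.08, 7.42, 6.01 and 8.38. In LLC, BOLA-DQA1 and BOLA-DQB1 were highest on replicate 2, at 5.43 and 6.29, and BOLA was lowest on replicate 3, at 4.26. These genes are highly polymorphic, so a probe may read alleles unequally, and the part of alleles was not tested.

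Of the other genes of the 12 with the highest SD, DES, the muscle filament desmin, gave 3.77, 5.28, 6.73 and 5.80 and was lowest on replicate 1. CDH2 (N-cadherin), FGG (fibrinogen gamma) and XCL1, which all counted as higher in LLC, were each highest on SLC replicate 3, at 6.54, 7.80 and 5.13. GSTO1, a glutathione transferase, was 4.22 on replicate 3 and between 6.30 and 6.54 on the others. MMRN1, a protein of endothelial cells and platelets, and ULBP3, a ligand of natural killer receptors, were highest on replicate 2, and GBP5, an interferon-induced GTPase, was lowest on replicate 3. In LLC, ULBP3 was 6.09 on replicate 1 and 2.69 to 3.47 on the others, and GBP5 was lowest on replicate 3, at 3.32. GSTO1 was highest on LLC replicate 3, at 6.92, and CDH2 and FGG on LLC replicates 1 and 2, at 7.97 and 9.85. For 11 of the 12, all but MMRN1, leaving out 1 SLC array reduced the SD over the SLC arrays by more than 1.5 times. The array was chosen for each gene, and the genes for their high SD on the same arrays, so this drop is a description. Without replicate 4 the SD was 0.74 for MRO, 0.16 for BOLA-DQB1 and 0.47 for BOLA-DQA1. Without replicate 3 it was 0.54 for CDH2, 0.41 for FGG, 0.14 for GSTO1, 0.50 for GBP5 and 0.49 for BOLA. It was 0.73 for DES and 0.68 for XCL1 without replicate 1, and 0.19 for ULBP3 without replicate 2.

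**Figure D4:**
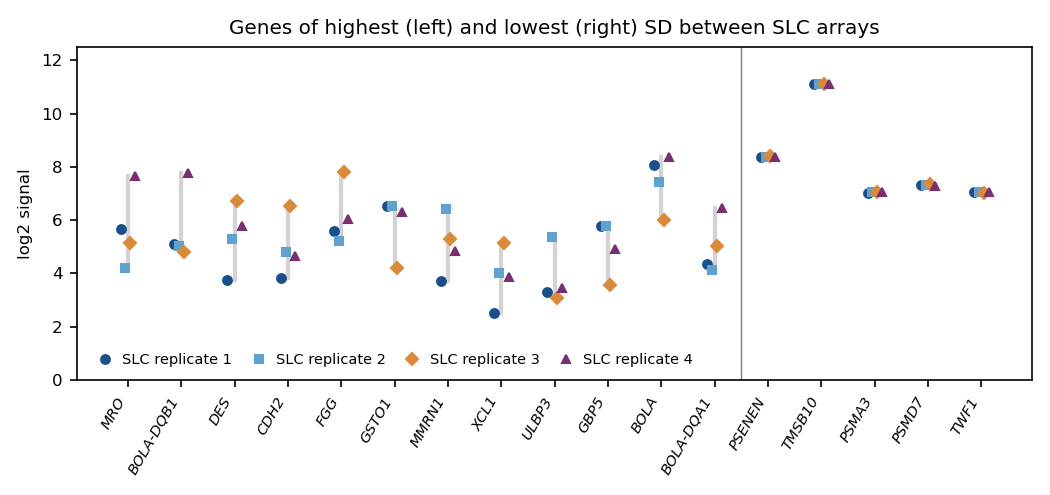
Log2 signal (vertical axis) on each of the 4 SLC arrays for the 12 genes of highest SD among those above the background limit and the 5 genes of lowest SD among those of high signal, with grey bars from the lowest to the highest array. BOLA-DQB1 stands apart on replicate 4 and GSTO1 on replicate 3, while the points of PSENEN and TMSB10 coincide.

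At the stable end, PSENEN, a subunit of gamma-secretase, gave 8.39, 8.39, 8.40 and 8.39, and TMSB10, the actin-binding thymosin beta 10, gave 11.10, 11.12, 11.11 and 11.12. PSMA3 and PSMD7, proteasome subunits, and TWF1, the actin regulator twinfilin, each had an SD of 0.02. These values describe the arrays after normalization by the authors, which aligned the distributions of all 8.

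Gene list means differed between the SLC arrays. Cholesterol synthesis was highest on replicate 1, where 13 of 15 members had their highest SLC signal and the list mean lay 0.18 above the mean of the 4 arrays, and lowest on replicate 3, with 12 of 15 members lowest and a list mean 0.19 below. Replicate 1 was also the lowest array for the lymphatic list, in 4 of 4 members, and for pericyte and smooth muscle markers, in 5 of 8, with list means of -0.57 and -0.50 relative to the SLC mean. Large luteal markers were highest on replicate 1, at 0.31, and lowest on replicate 2, at -0.29.

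Replicate 4 was the highest array for several stromal lists. Matrix glycoproteins and proteoglycans were highest there in 21 of 37 members, with a list mean of 0.32, fibroblast markers in 6 of 8, at 0.32, and endothelial markers in 6 of 8, at 0.34. The same array was lowest for ribosomal protein genes, in 23 of 36 members at a list mean of -0.09, and for macrophage markers, in 6 of 10 at -0.18. Endothelial markers were lowest on replicate 3, in 6 of 8 members at -0.35, as were immediate-early and heat-shock genes, in 18 of 28 at -0.13. The theca-lineage list had means between -0.07 and 0.09. Its members still varied singly, with a median SD of 0.26 against 0.152 over all genes. These shifts are descriptions of 4 samples, and members of a list share the sample they come from.

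**Figure D5:**
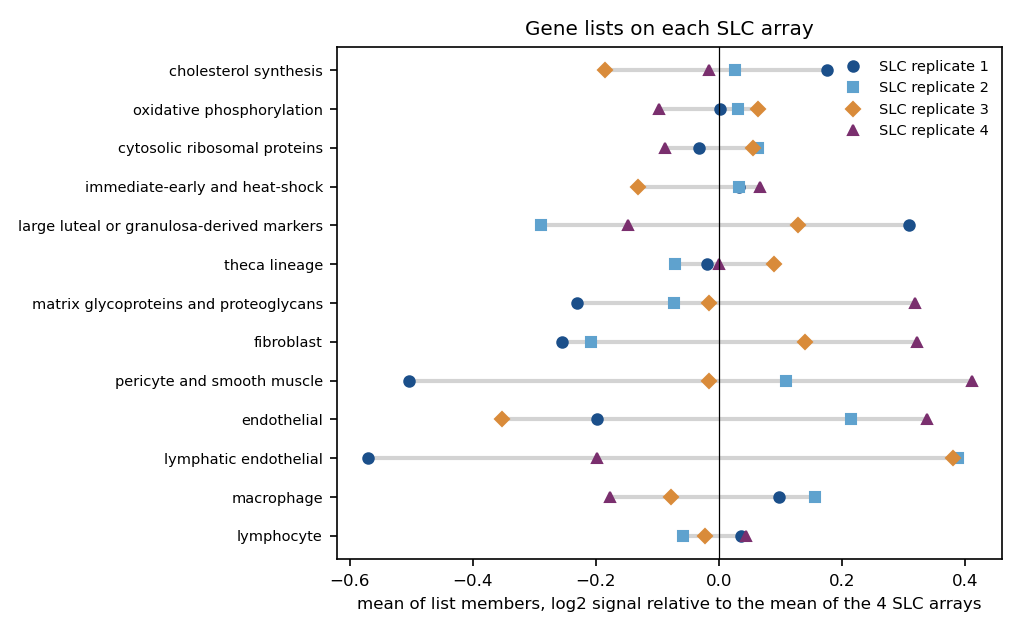
Mean log2 signal of the members of 13 gene lists (rows) on each SLC array, relative to the mean of the 4 SLC arrays (horizontal axis), with symbols for replicates 1 to 4. Pericyte and endothelial lists are highest on replicate 4, cholesterol synthesis runs from 0.18 on replicate 1 to -0.19 on replicate 3, and the theca-lineage list stays within 0.09 of the mean.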

How the data were processed

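RNA of 4 SLC and 4 LLC samples was hybridised to 1 array each. The table deposited by the authors holds log2 signals, made from the scans with RMA (version not given in the sources used here) in Transcriptome Analysis Console 4.0, which corrects background, aligns all arrays and summarises probes. They were used as deposited. Symbols came from the platform annotation, in which 595 clusters had several symbols and 5270 had none. Of the clusters with 1 symbol, 18074 matched RefSeq by gene number and none changed. The cluster of highest mean over the 8 arrays was kept for each of 416 symbols with several. Percentiles and limits were computed with Python 3.11.15 and pandas 2.3.3. SLC and LLC were compared with lmFit and eBayes of limma 3.58.1 (R 4.3.3) on all 8 arrays, with Benjamini-Hochberg adjustment over 24415 clusters, and the code was tested on simulated data. The number of arrays limits the precision.

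The gene lists, markers and rules were chosen with earlier results of these data known. Named genes were the markers, the 20 highest signals, the 4 highest and 2 lowest members of each of the 27 lists, the 12 highest and 5 lowest SD, the 10 largest gains and 5 largest losses of percentile among called genes, and genes above the limit in 1 cell type. Others, mostly members behind small counts, were picked once their values were known. Alternatives were quantile normalization, median subtraction, a filter at the 40th percentile of signal, a replicate block, array weights, an intensity trend, other limits, other clusters per symbol and leaving out each array. No sequences or coordinates are given.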

Additional observations from a re-analysis of the deposited data

Results flagged for a closer look

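In groups of 4 arrays, a sample was marked where its gap to the nearest of the other 3, divided by the whole range of the group, was above Dixon's critical value for 4 values at the 95% level. This held for 11 of 229 groups looked at, and chance marks about 1 in 20. SLC replicates 1 and 2 stood apart in 2 groups each and SLC replicates 3 and 4 in 3 each.

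BOLA-DQB1 was 7.76 on SLC replicate 4 against 4.80 to 5.10 on the others (ratio 0.899), RPS23 was 2.27 there against 3.18 to 3.29 (ratio 0.892), and TIMP2 was 11.34 against 11.50 to 11.51 (ratio 0.941). GSTO1 was 4.22 on SLC replicate 3 against 6.30 to 6.54 (ratio 0.897), and EGR1 was 9.70 there against 10 to 10.06 (ratio 0.833). PSENEN, the gene of lowest spread, was also marked on SLC replicate 3, at 8.40 against 8.39 (ratio 1), which is the smallest step of the deposited values. ULBP3 was 5.38 on SLC replicate 2 against 3.08 to 3.45 (ratio 0.839), and ADCY5, at or below the background limit, was 2.10 there against 1.48 to 1.57 (ratio 0.855). NR0B1 was 3.01 on SLC replicate 1 against 2.65 to 2.68 (ratio 0.917), and ELANE, also below the limit, was 1.74 there against 1.54 to 1.56 (ratio 0.9). In LLC, CD163 was 2.60 on replicate 4 against 3.31 to 3.45 (ratio 0.835).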

How the results depend on the processing

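No result changed direction under any alternative run. With no fold filter, 2481 clusters counted as higher in SLC and 2353 as higher in LLC, in place of 750 and 584. Leaving out each array in turn gave 603 to 903 and 523 to 758. The LHCGR difference passed without LLC replicate 4, at 1.58, and ran from 0.89 to 1.58 over the arrays left out. The range over the 4 arrays had a median of 0.34 where the SD had 0.152. Genes above background on all SLC arrays and no LLC array numbered 40 with the limit at the 90th percentile of olfactory receptor genes and 70 to 94 with an array left out. For LLC the corresponding numbers were 25 at the 90th percentile, 88 at the 99th and 50 to 86 with an array left out, the highest without LLC replicate 4. Leaving out an array of a cell type eases the condition on that cell type.

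The replicate numbers were not taken to pair the samples, as deviations of same-numbered SLC and LLC arrays correlated at -0.132, -0.066, 0.167 and 0.011. SLC replicate 4 with LLC replicate 2 (0.255) and SLC replicate 2 with LLC replicate 1 (0.198) correlated more. LLC replicates 3 and 4 correlated most with SLC replicates 3 (0.167) and 1 (0.095). Each LLC array thus had a different closest SLC array. Whether such samples shared a cow is not given by the labels and was not tested. No such pairing was fitted, and the main fit treated the groups as unpaired. With the replicate number as a block (the replicate block), 779 clusters counted as higher in SLC and 585 as higher in LLC, and no call of the markers changed. Signals near the background limit, and groups of 4 arrays, limit how small a difference can be detected.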
